A study of Mus musculus with 16 samples.

Results

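Mitochondria fuse, divide and are removed by autophagy, and 10 genes of this machinery were followed in whole heart RNA of 16 male mice. The genes were taken by symbol, for their known function, with earlier results of these data known. These genes make up 10 of the 55278 gene symbols in the deposited tables. They are Mfn1, Mfn2 and Opa1 for fusion, Dnm1l, Fis1 and Mff for fission, and Bnip3, Bnip3l, Fundc1 and Pink1 for mitophagy. Each symbol had a single row in the files, each member passed the filter on low counts, and the lowest estimated count of any member in any library was 895.

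The mice were C57BL/6J males aged 8 to 12 weeks, in 4 groups of 4. PPARα-deficient mice, described by the labels as lacking PPARα in cardiomyocytes, were given LPS (bacterial endotoxin, 5 mg/kg into the peritoneum) or PBS, and PPARa-Flox mice, which carry the floxed gene, were given LPS or PBS. Hearts of the LPS mice were taken after 12 h, and the sample labels give no time for the PBS mice. The labels do not name the Cre line and there was no group with Cre alone, so loss of PPARα and presence of Cre cannot be told apart.

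Outer mitochondrial membranes are joined by the mitofusins MFN1 and MFN2, and inner membranes by OPA1, all of them GTPases. Fission is carried out by DRP1, the cytosolic GTPase encoded by Dnm1l, which is drawn to the outer membrane by adaptors such as MFF. Damaged mitochondria are marked for autophagy by the kinase PINK1 together with Parkin, or are bound directly to the autophagosome by the outer membrane receptors BNIP3, NIX (encoded by Bnip3l) and FUNDC1. Cardiomyocytes are packed with mitochondria, and loss of both mitofusins or of DRP1 from the adult mouse heart is known to cause heart failure.

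The promoters of 3 members are shown because both mitofusin genes fell and Bnip3 rose with LPS in both genotypes. Each window covers 250 bases before and 50 bases from the RefSeq transcript start (GRCm38.p6), written 5′ to 3′ on the strand of the gene. Bnip3 lies on the minus strand at chr7:138909457-138909756, Mfn2 on the minus strand at chr4:147904649-147904948 (of 3 RefSeq windows, the one nearest to the annotated gene start), and Mfn1 on the plus strand at chr3:32529232-32529531. Capitals mark matches on either strand to the hypoxia response cores ACGTG and GCGTG, or to the NRF1 motif (GCGCA and GCGC with 1 base of any kind between them).
Bnip3: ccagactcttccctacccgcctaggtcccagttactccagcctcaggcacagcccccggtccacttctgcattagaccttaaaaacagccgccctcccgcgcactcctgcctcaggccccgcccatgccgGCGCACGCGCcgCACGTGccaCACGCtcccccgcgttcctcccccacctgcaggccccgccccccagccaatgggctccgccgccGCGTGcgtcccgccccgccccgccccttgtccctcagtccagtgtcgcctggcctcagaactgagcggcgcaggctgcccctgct
Mfn2: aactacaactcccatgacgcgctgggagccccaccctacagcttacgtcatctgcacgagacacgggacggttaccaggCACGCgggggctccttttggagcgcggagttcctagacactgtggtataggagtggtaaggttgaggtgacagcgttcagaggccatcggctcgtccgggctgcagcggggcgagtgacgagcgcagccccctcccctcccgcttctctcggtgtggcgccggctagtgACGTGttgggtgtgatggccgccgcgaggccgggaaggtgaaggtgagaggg
Mfn1: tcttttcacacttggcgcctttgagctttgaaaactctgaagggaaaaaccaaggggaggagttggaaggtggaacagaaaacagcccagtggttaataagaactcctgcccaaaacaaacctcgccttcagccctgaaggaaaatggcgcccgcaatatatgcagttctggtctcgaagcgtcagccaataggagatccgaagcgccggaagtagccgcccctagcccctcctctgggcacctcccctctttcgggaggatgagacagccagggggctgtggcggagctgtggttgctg

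The Bnip3 window held 5 matches to the hypoxia cores, 2 to ACGTG and 3 to GCGTG. The 2 ACGTG matches overlap as the palindrome CACGTG, and 1 GCGTG match lies on the opposite strand inside the only match to the NRF1 motif. Of the 32851 promoter windows in the table, 43.8% held at least 1 of the hypoxia cores and 1.66% held as many as Bnip3. ACGTG alone occurred in 19.6% of all windows and GCGTG in 32.4%. The Mfn2 window held 1 match to each core, and the Mfn1 window held no match to any motif searched. RefSeq windows were matched for 9 of the 10 members, 14 windows in all, and 8 of the 14 held at least 1 hypoxia core. By gene, a core was found for 5 of those 9 members (Mfn2, Dnm1l, Fis1, Bnip3 and Pink1). That count is of genes, some with more than 1 window, and does not stand beside the 43.8% of windows. The NRF1 motif, present in 4.6% of all windows, was found for Opa1, Bnip3 and Pink1. Neither the ERR half-site AAGGTCA (4.72% of all windows) nor the PPAR direct repeat, which is AGGTCA at 2 places with 1 base between them (0.0396% of all windows), was found in any of the 14 windows of the members. These are letter matches in 300 bases, not measured binding sites. The exact PPAR repeat is so rare that its absence from 14 windows says little about the members.

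The libraries held between 65569134 and 75436023 estimated counts. Low values piled up at multiples of 4, and division by 4 gives 16392284 to 18859006 per library. Mitochondrial genome transcripts took 22.5% to 29.8% of counts. All 6 pancreatic islet markers were at 0 in every library although the extraction text speaks of islets, and the cardiomyocyte markers were high, so the tissue was taken as heart. The numbers in the column headers were all higher for LPS than for PBS libraries, so the effect of LPS and the order of numbering cannot be told apart. In PBS hearts, Ppara averaged 14.6 ± 2.58 CPM (counts scaled to library size) in PPARα-deficient mice and 50.2 ± 9.86 CPM in PPARa-Flox mice (SD, n = 4 each). Its log2 fold change there was -1.79 ± 0.28 (SE, adjusted p = 0.00287, edgeR quasi-likelihood test). In LPS hearts, Ppara averaged 7.98 ± 3.38 CPM in PPARα-deficient mice and 11.3 ± 3.31 CPM in PPARa-Flox mice, with overlapping ranges and a log2 fold change of -0.50 ± 0.27 (SE, adjusted p = 0.651).

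The first question was how LPS changed the 10 genes in each genotype. In PPARα-deficient hearts, 5 members fell with LPS (Mfn1, Mfn2, Opa1, Dnm1l and Fundc1), 2 rose (Bnip3 and Fis1), and Mff, Bnip3l and Pink1 did not pass the test. In PPARa-Flox hearts, 4 members fell (Mfn1, Mfn2, Opa1 and Dnm1l), Bnip3 rose, and the other 5 did not pass. A gene was called at a Benjamini-Hochberg adjusted p under 0.05 in the edgeR quasi-likelihood test, adjusted over all 18713 genes tested. Over all genes tested, 37.7% were called with LPS in PPARα-deficient hearts (19.4% higher and 18.3% lower) and 39.3% in PPARa-Flox hearts (20.2% higher and 19.1% lower).

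The median log2 fold change of the members with LPS was -0.33 in PPARα-deficient hearts and -0.34 in PPARa-Flox hearts, beside 0.01 over all genes in each genotype. The CPM ranges of LPS and PBS hearts did not overlap for 7 of the 10 members in PPARα-deficient hearts and 5 of 10 in PPARa-Flox hearts. Over all genes tested the same was true of 37.9% in PPARα-deficient hearts and 37.6% in PPARa-Flox hearts.

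**Figure D1:**
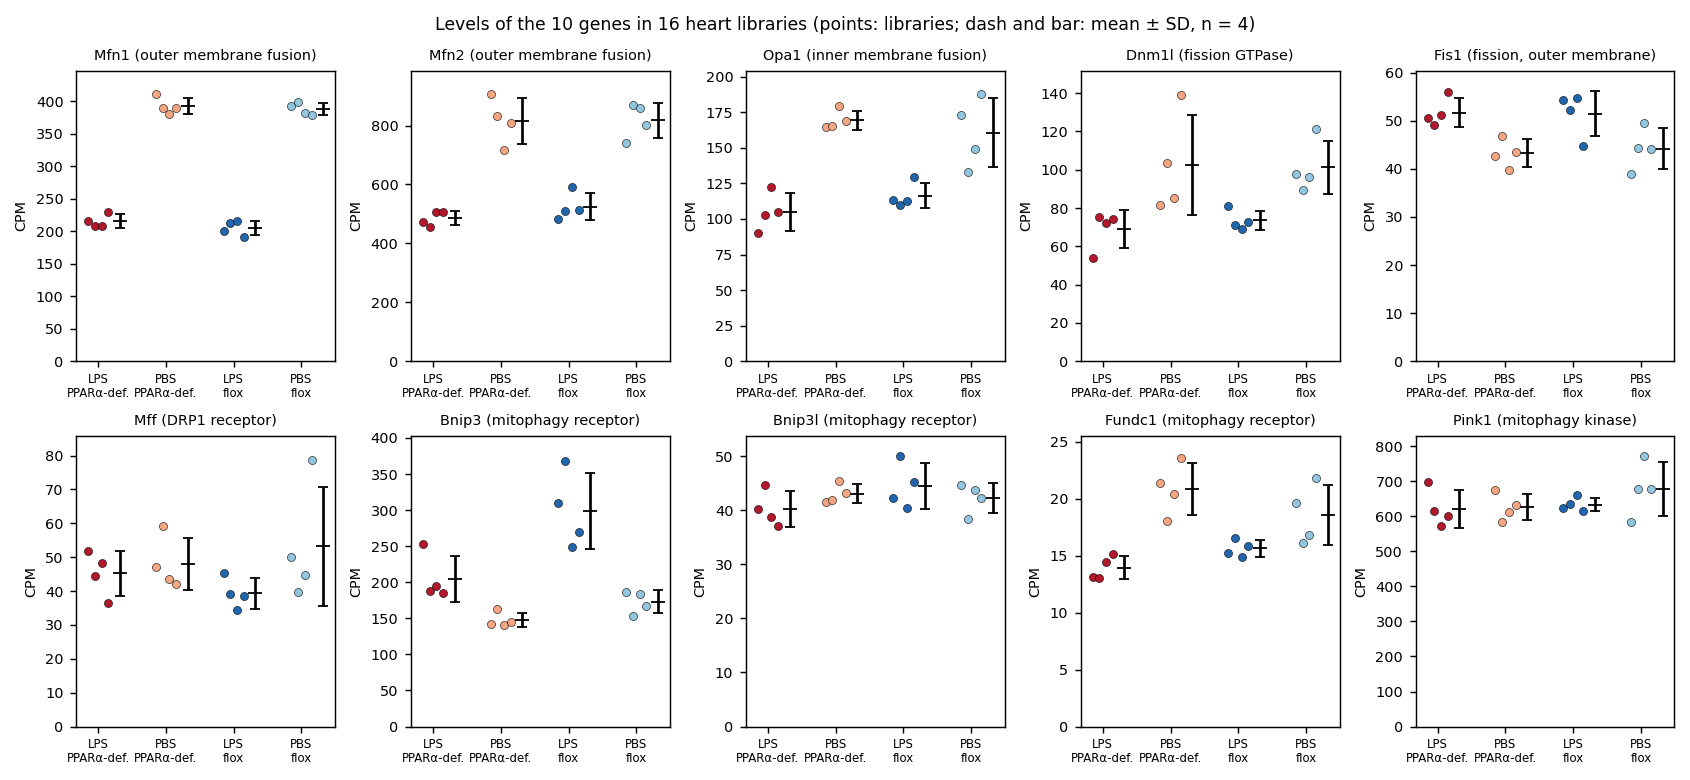
Level of each of the 10 genes in CPM (linear axes from 0), with 1 point per heart, a dash at the mean and a bar of ± 1 SD for each group (n = 4). Mfn1 shows the cleanest separation, with all 8 LPS hearts between 191 and 230 CPM and all 8 PBS hearts between 378 and 411 CPM, while the Pink1 groups overlap.

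Among the fusion genes, Mfn1 (chromosome 3, 32529465 to 32579239, plus strand, GRCm38 with GENCODE gene models as for the other members) showed the clearest change. PPARα-deficient hearts had 215, 208, 208 and 230 CPM after LPS, against 411, 390, 381 and 390 CPM after PBS. PPARa-Flox hearts had 201, 212, 216 and 191 CPM after LPS, against 393, 400, 382 and 378 CPM after PBS. Every LPS heart was far below every PBS heart. Mfn1 was 1.82-fold lower with LPS in PPARα-deficient hearts (log2 fold change -0.87 ± 0.06 SE, adjusted p = 2.72e-08) and 1.89-fold lower in PPARa-Flox hearts (-0.92 ± 0.06 SE, adjusted p = 1.40e-08).

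Mfn2 (chromosome 4, 147873599 to 147904704, minus strand), which also tethers mitochondria to the endoplasmic reticulum, fell in both genotypes. The PPARα-deficient hearts held 474, 456, 507 and 506 CPM after LPS, against 908, 832, 718 and 808 CPM after PBS. For PPARa-Flox hearts the levels were 482, 512, 591 and 514 CPM after LPS, against 741, 869, 860 and 800.5 CPM after PBS. LPS and PBS hearts did not overlap in either genotype, and the ranges of the LPS hearts of both genotypes overlapped. Mfn2 was 1.68-fold lower with LPS in PPARα-deficient hearts (-0.75 ± 0.08, SE in log2 units, adjusted p = 3.12e-06) and 1.56-fold lower in PPARa-Flox hearts (-0.64 ± 0.08 SE, adjusted p = 1.49e-05).

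Opa1 (chromosome 16, 29579334 to 29654884, plus strand), the fusion GTPase of the inner membrane, which also shapes cristae, followed the same direction. PPARα-deficient hearts had 90.0, 103, 122 and 105 CPM after LPS, against 164, 165, 179 and 169 CPM after PBS. The PPARa-Flox hearts held 113, 110.0, 113 and 129.6 CPM after LPS, against 173, 133, 149 and 188 CPM after PBS. The groups did not overlap, although in PPARa-Flox hearts the highest LPS heart came close to the lowest PBS heart. Opa1 was 1.61-fold lower in PPARα-deficient hearts (-0.69 ± 0.11, SE in log2 units, adjusted p = 8.43e-05) and 1.38-fold lower in PPARa-Flox hearts (-0.47 ± 0.11 SE, adjusted p = 0.00245).

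Among the fission genes, Dnm1l (chromosome 16, 16312230 to 16358959, minus strand) fell, whereas Fis1 rose in 1 genotype and Mff was not called. In PPARα-deficient hearts Dnm1l had 54.1, 75.2, 72.3 and 74.0 CPM after LPS, against 81.7, 104, 85.1 and 139 CPM after PBS. Levels in PPARa-Flox hearts were 80.9, 71.3, 69.2 and 72.5 CPM after LPS, against 97.6, 89.6, 96.2 and 121 CPM after PBS. All LPS hearts were below all PBS hearts of their genotype, and replicate 4 was the highest PBS heart in each genotype. Dnm1l was 1.49-fold lower in PPARα-deficient hearts (-0.57 ± 0.15, SE in log2 units, adjusted p = 0.00698) and 1.38-fold lower in PPARa-Flox hearts (-0.46 ± 0.15 SE, adjusted p = 0.0239).

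The call of Dnm1l in PPARa-Flox hearts depended on single libraries. Its adjusted p was 0.0871 without PBS replicate 4 and 0.0547 without LPS replicate 2 of that genotype. With the 2 number series of the PBS column headers as a term it was 0.119, with a log2 fold change of -0.34. An antisense gene, Gm49521, covers 4.67% of the exon bases of Dnm1l and had 17 to 69 estimated counts, and the strand setting of the counting is not given in the sources used here.

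Fis1 (chromosome 5, 136953275 to 136966234, plus strand) encodes an outer membrane protein that recruits fission factors. The PPARα-deficient hearts held 50.6, 49.1, 51.1 and 56.0 CPM after LPS, against 42.7, 46.9, 39.8 and 43.6 CPM after PBS. PPARa-Flox hearts had 54.3, 52.3, 54.7 and 44.7 CPM after LPS, against 39.0, 44.3, 49.5 and 44.1 CPM after PBS. The groups were apart in PPARα-deficient hearts and overlapped in PPARa-Flox hearts. Fis1 was 1.20-fold higher in PPARα-deficient hearts (0.26 ± 0.09, SE in log2 units, adjusted p = 0.0304), and its change of 0.22 ± 0.09 (SE) in PPARa-Flox hearts did not pass the test (adjusted p = 0.0609). The call in PPARα-deficient hearts was lost without PPARα-deficient LPS replicate 4 or PPARα-deficient PBS replicate 1, 3 or 4, where the adjusted p was between 0.0545 and 0.0923.

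Mff (chromosome 1, 82724890 to 82752394, plus strand), a receptor for DRP1 on the outer membrane, was not called in any comparison by edgeR with all libraries. Its levels ran between 36.4 and 51.8 CPM after LPS and between 42.2 and 59.2 CPM after PBS in PPARα-deficient hearts. In PPARa-Flox hearts they ran between 34.4 and 45.3 CPM after LPS and between 39.6 and 78.7 CPM after PBS. The log2 fold changes with LPS were -0.09 ± 0.18 (SE, adjusted p = 0.746) in PPARα-deficient hearts and -0.44 ± 0.18 (SE, adjusted p = 0.0668) in PPARa-Flox hearts. The SD of the PPARa-Flox PBS hearts was 32.9% of their mean, the highest among the members, where the median over all members and groups was 8.85%. Replicate 4 was the highest of these PBS hearts at 78.7 CPM, and without it the log2 fold change of Mff in PPARa-Flox hearts was -0.19 (adjusted p = 0.339). Without PBS replicate 2 it was -0.56 (adjusted p = 0.0243), and with DESeq2 and all libraries the adjusted p was 0.0408.

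Bnip3 (chromosome 7, 138890836 to 138909519, minus strand), a mitophagy receptor of the BCL2 family and a known target of the hypoxia-inducible factor HIF-1, was the member that rose most. PPARα-deficient hearts had 252, 188, 195 and 185 CPM after LPS, against 143, 163, 141 and 145 CPM after PBS. For PPARa-Flox hearts the levels were 310.4, 369, 249 and 269 CPM after LPS, against 187, 153, 184 and 168 CPM after PBS. LPS and PBS hearts did not overlap in either genotype, and the LPS levels spread more widely than the PBS levels. Bnip3 was 1.39-fold higher in PPARα-deficient hearts (0.47 ± 0.12, SE in log2 units, adjusted p = 0.00599) and 1.73-fold higher in PPARa-Flox hearts (0.79 ± 0.12 SE, adjusted p = 8.13e-05). The antisense gene Gm45507 covers 22.3% of the exon bases of Bnip3 and had 0 counts in all libraries.

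Its paralogue Bnip3l (chromosome 14, 66985239 to 67008877, minus strand), which encodes NIX, a receptor known for clearing mitochondria from maturing red cells, did not pass the test in either genotype. Bnip3l ran between 37.0 and 44.7 CPM after LPS and between 41.6 and 45.4 CPM after PBS in PPARα-deficient hearts. In PPARa-Flox hearts it ran between 40.4 and 50.03 CPM after LPS and between 38.4 and 44.7 CPM after PBS. The log2 fold changes were -0.10 in PPARα-deficient hearts (95% interval -0.28 to 0.08) and 0.08 in PPARa-Flox hearts (95% interval -0.10 to 0.25). The annotated pseudogene Bnip3l-ps averaged 3.94 to 4.71 CPM in the 4 groups and may share reads with Bnip3l. Red cell markers varied widely, with summed levels of 34.1 to 308 CPM after LPS and 125 to 1332 CPM after PBS in PPARα-deficient hearts, and 100.1 to 430 CPM after LPS and 176 to 659 CPM after PBS in PPARa-Flox hearts. Their part in the Bnip3l levels was not tested.

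Fundc1 (chromosome X, 17556564 to 17572325, minus strand), a receptor linked to mitophagy in hypoxia, was the least abundant member by CPM. The PPARα-deficient hearts held 13.1, 13.1, 14.5 and 15.1 CPM after LPS, against 21.4, 18.0, 20.4 and 23.5 CPM after PBS. The PPARa-Flox hearts held 15.2, 16.6, 14.9 and 15.9 CPM after LPS, against 19.6, 16.1, 16.8 and 21.8 CPM after PBS. The groups were apart in PPARα-deficient hearts and overlapped in PPARa-Flox hearts. Fundc1 was 1.5-fold lower with LPS in PPARα-deficient hearts (-0.58 ± 0.11, SE in log2 units, adjusted p = 0.000447). In PPARa-Flox hearts its log2 fold change of -0.25 ± 0.11 (SE) did not pass (adjusted p = 0.0788).

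Pink1 (chromosome 4, 138313409 to 138326307, minus strand) encodes the kinase that accumulates on depolarised mitochondria and activates Parkin. It lay between 571 and 699 CPM after LPS and between 585 and 675 CPM after PBS in PPARα-deficient hearts. In PPARa-Flox hearts it lay between 615 and 660 CPM after LPS and between 582.4 and 772 CPM after PBS. The 4 groups overlapped. The log2 fold change with LPS was -0.01 in PPARα-deficient hearts (95% interval -0.19 to 0.17) and -0.10 in PPARa-Flox hearts (95% interval -0.28 to 0.08).

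**Figure D2:**
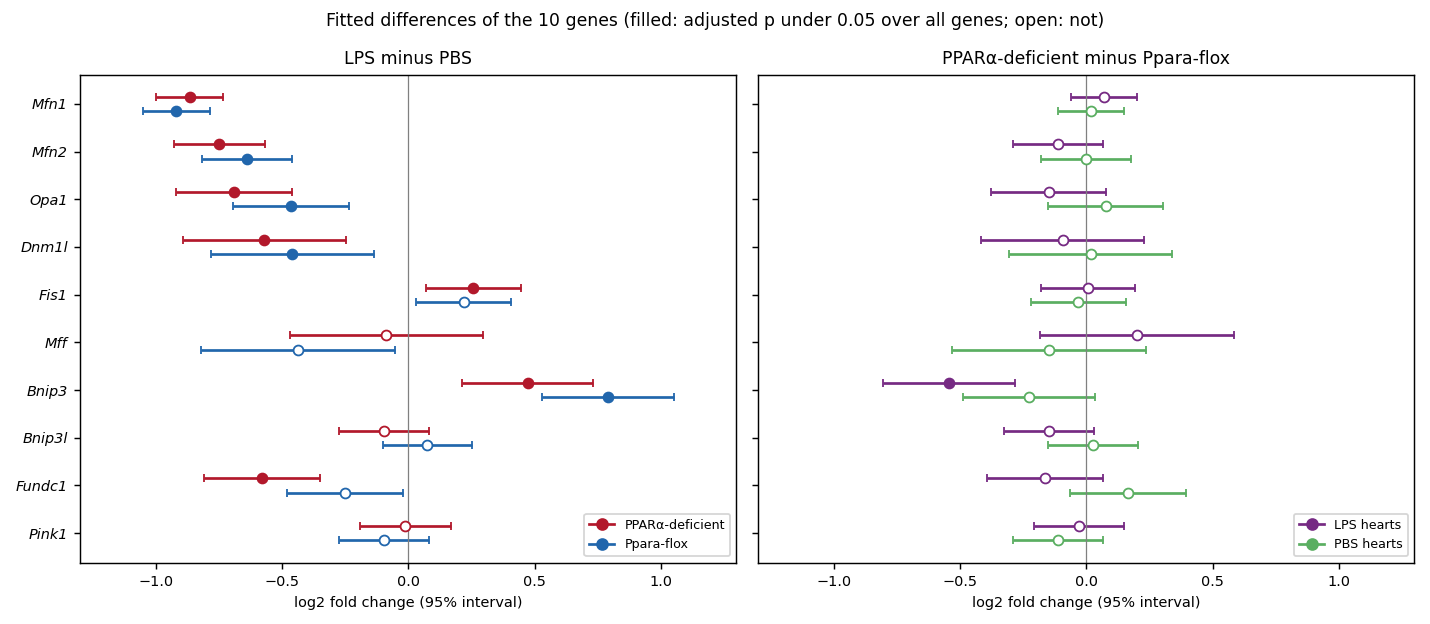
Log2 fold change of each of the 10 genes with its 95% interval, for LPS against PBS in each genotype and for PPARα-deficient against PPARa-Flox hearts under each treatment. Mfn1, Mfn2, Opa1 and Dnm1l lie below 0 with LPS in both genotypes and Bnip3 above 0, and in the genotype comparisons Bnip3 in LPS hearts lies farthest from 0 at -0.55.

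Markers of heart cell types moved with LPS too. The summed level of 10 cardiomyocyte markers was 39385 to 44288 CPM after LPS and 60367 to 67888 CPM after PBS in PPARα-deficient hearts, with 8 of 10 called lower. In PPARa-Flox hearts it was 35545 to 41362 CPM after LPS and 63984 to 71293 CPM after PBS, with 9 of 10 called lower. The median log2 fold change of these markers was -0.37 in PPARα-deficient and -0.42 in PPARa-Flox hearts. Over all genes tested, 18.3% were called lower in PPARα-deficient hearts and 19.1% in PPARa-Flox hearts. The 10 neutrophil markers summed to 60.6 to 95.6 CPM after LPS and 4.46 to 13.2 CPM after PBS in PPARα-deficient hearts, and to 68.8 to 124 CPM after LPS and 5.10 to 6.31 CPM after PBS in PPARa-Flox hearts. Of these markers, 1 was at 0 in all PPARα-deficient PBS hearts and 2 in all PPARa-Flox PBS hearts. Of 6 smooth muscle and pericyte markers, 4 were called lower in PPARα-deficient hearts (median log2 fold change -0.99) and 5 in PPARa-Flox hearts (-1.20). Of 8 fibroblast markers, 5 were called lower and 1 higher in each genotype (medians -0.53 in PPARα-deficient and -0.71 in PPARa-Flox hearts). Of 8 endothelial markers, 2 were called lower and 1 higher in each genotype. In whole heart RNA, fewer cells of a type and less RNA per cell cannot be told apart, and the part of these markers in the changes of the members was not tested.

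Genes of mitochondrial content gave a further yardstick. Of 22 nuclear genes for porins, import, the TCA cycle and the respiratory chain, 17 fell and 0 rose with LPS in PPARα-deficient hearts, with a median log2 fold change of -0.24. In PPARa-Flox hearts 18 fell and 1, the import receptor gene Tomm20, rose, with a median of -0.28. The median over all 10 members was -0.33 in PPARα-deficient and -0.34 in PPARa-Flox hearts. Mfn1, Mfn2, Opa1 and the fission gene Dnm1l fell by more than the list medians in both genotypes (0.46 or more on the log2 scale). These are the members called lower in both genotypes, so their larger falls do not show that the members as a set fell beyond the list. The difference from the list was not tested. None of the 13 protein-coding genes of the mitochondrial genome was called in either genotype (edgeR, 0 also at an unadjusted p under 0.05).

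The second question was whether loss of PPARα changed the 10 genes. Ppara RNA itself was not called between the genotypes in LPS hearts (adjusted p = 0.651, edgeR quasi-likelihood test). In LPS hearts 1 member was called, Bnip3, which was 1.46-fold lower in PPARα-deficient hearts than in PPARa-Flox hearts (log2 fold change -0.55 ± 0.12 SE, adjusted p = 0.037, edgeR quasi-likelihood test). Over all genes tested 1.23% were called in this comparison, 0.385% higher and 0.85% lower. Bnip3 averaged 205 ± 31.9 CPM in PPARα-deficient LPS hearts and 299 ± 52.8 CPM in PPARa-Flox LPS hearts (SD, n = 4 each). Replicate 1 of the PPARα-deficient LPS hearts, at 252 CPM, lay just above the lowest PPARa-Flox LPS heart, at 249 CPM, so the groups overlapped. No member had ranges apart in this comparison, which 5.32% of all genes had. The LPS hearts compared here also enter the LPS comparisons above.

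The Bnip3 call was close to the threshold, and it was kept in 11 of 27 alternatives. Its adjusted p was 0.00344 with DESeq2 and 0.00784 without PPARα-deficient LPS replicate 1, the highest of its group. It was between 0.11 and 0.142 without PPARα-deficient LPS replicate 2, 3 or 4 or PPARa-Flox LPS replicate 1 or 2, and between 0.0516 and 0.0541 without PPARα-deficient PBS replicate 1, 3 or 4 or PPARa-Flox PBS replicate 3 or 4. It was 0.208 when only the 8 LPS libraries were fitted. The log2 fold change kept its sign in every alternative, between -0.66 and -0.43.

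The other 9 members did not pass in LPS hearts, with adjusted p-values of 0.687 or more. Their log2 fold changes ran from -0.16 for Fundc1 to 0.20 for Mff. The 95% interval of the difference in LPS hearts was -0.06 to 0.20 for Mfn1, -0.29 to 0.07 for Mfn2 and -0.38 to 0.08 for Opa1. For Pink1 it was -0.21 to 0.15. All 12 macrophage markers had a positive log2 fold change for loss of PPARα in LPS hearts, with 0 called by edgeR and 5 at an unadjusted p under 0.05, and they summed to 247 to 350 CPM in PPARα-deficient LPS hearts and 213 to 283 CPM in PPARa-Flox LPS hearts. Of 10 cardiomyocyte markers, 9 had a positive log2 fold change for loss of PPARα in LPS hearts, 1 was called higher (Tnnt2, cardiac troponin T, 0.33 ± 0.08 SE, edgeR adjusted p = 0.0465) and 3 had an unadjusted p under 0.05. The 10 markers summed to 39385 to 44288 CPM in PPARα-deficient LPS hearts and 35545 to 41362 CPM in PPARa-Flox LPS hearts. All 7 tested red cell markers had a negative log2 fold change (median -1.0), with 0 called by edgeR and 0 at an unadjusted p under 0.05, and the list summed to 34.1 to 308 CPM in PPARα-deficient LPS hearts and 100.1 to 430 CPM in PPARa-Flox LPS hearts. Of 8 endothelial markers, 2 had a positive log2 fold change (median of the list -0.17), with 0 called by edgeR and 3 at an unadjusted p under 0.05. The 8 summed to 820 to 863 CPM in PPARα-deficient LPS hearts and 868 to 1019.5 CPM in PPARa-Flox LPS hearts, without overlap. The part of these cell types in the Bnip3 difference was not tested.

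In PBS hearts no member was called for loss of PPARα by edgeR (0 of 10 at an unadjusted p under 0.05) or by DESeq2, and over all genes 0.433% were called, 0.0321% higher and 0.401% lower. The ranges overlapped for all 10 members, where 3.99% of all genes had ranges apart. Bnip3 again had the largest size among the members, at -0.23 ± 0.12 (SE, adjusted p = 0.975). It averaged 148 ± 9.99 CPM in PPARα-deficient PBS hearts and 173 ± 15.9 CPM in PPARa-Flox PBS hearts (SD, n = 4 each), with overlapping ranges. The 95% interval was -0.11 to 0.15 for Mfn1 and -0.18 to 0.18 for Mfn2.

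Whether LPS acted differently in the 2 genotypes was tested as an interaction. Neither a member nor any other gene was called by edgeR (0% of 18713 genes), and 1 member, Fundc1, had an unadjusted p under 0.05. Its interaction was -0.33 ± 0.15 (SE, adjusted p = 0.862, edgeR quasi-likelihood test). For Bnip3 the interaction was -0.32 ± 0.17 (SE, adjusted p = 0.919), with a 95% interval of -0.69 to 0.05. DESeq2 called 26 genes higher and 29 lower, none of them a member. In other edgeR fits a few genes that are not members were called, with 3 higher and 1 lower at a filter of 1 CPM in 8 libraries, and 1 higher and 4 lower when replicate 3 of the PPARα-deficient and replicate 4 of the PPARa-Flox hearts given LPS were left out. So the calls of Fis1 and Fundc1 in PPARα-deficient hearts only are not shown to differ from PPARa-Flox hearts.

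Paralogue ratios compare family members within a library and do not depend on scaling. The ratio of Mfn1 to Mfn2 estimated counts was 0.417, 0.415, 0.366 and 0.372 in PPARa-Flox LPS hearts, against 0.530, 0.460, 0.444 and 0.473 in PPARa-Flox PBS hearts. In PPARα-deficient hearts it was 0.454, 0.456, 0.411 and 0.455 after LPS, against 0.452, 0.469, 0.531 and 0.482 after PBS. The groups were apart in PPARa-Flox hearts and overlapped in PPARα-deficient hearts. The log2 difference with LPS was -0.28 in PPARa-Flox hearts (exact two-sided permutation p = 0.0286, adjusted p = 0.0571 over 8 tests) and -0.12 in PPARα-deficient hearts (exact p = 0.114, adjusted p = 0.131).

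The ratio of Bnip3 to Bnip3l was 6.26, 4.20, 5.04 and 4.99 after LPS in PPARα-deficient hearts, against 3.43, 3.89, 3.11 and 3.35 after PBS. In PPARa-Flox hearts it was 7.34, 7.37, 6.16 and 5.95 after LPS, against 4.18, 3.98, 4.22 and 3.98 after PBS. No LPS heart overlapped a PBS heart of its genotype. The log2 difference was 0.56 in PPARα-deficient hearts and 0.71 in PPARa-Flox hearts, each with an exact p of 0.0286 and an adjusted p of 0.0571.

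Between genotypes, PPARα-deficient PBS hearts had a lower Bnip3 to Bnip3l ratio than PPARa-Flox PBS hearts, without overlap (log2 difference -0.25, exact p = 0.0286, adjusted p = 0.0571). In LPS hearts the difference was -0.40 with overlap (exact p = 0.0857, adjusted p = 0.114). With 4 against 4 hearts the smallest possible exact p is 0.0286, and none of the 8 adjusted p-values passed 0.05.

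**Figure D3:**
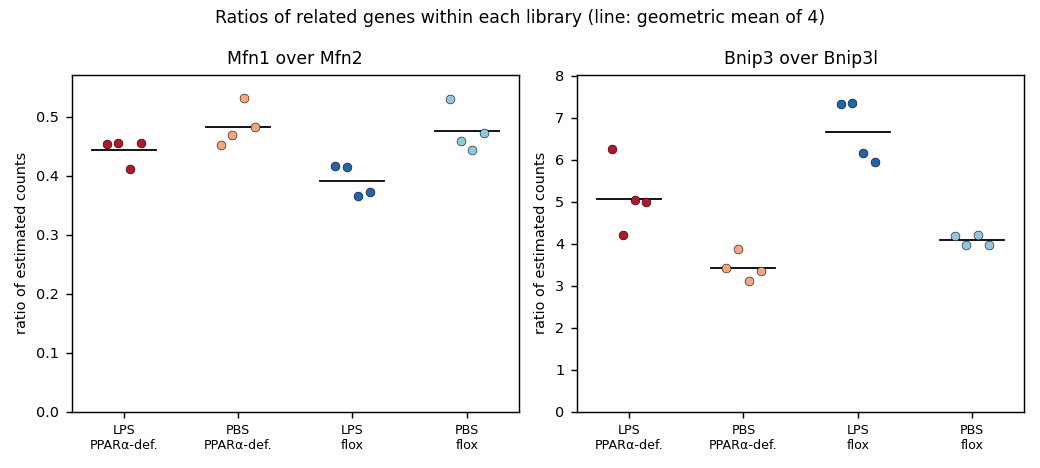
Ratio of estimated counts of Mfn1 to Mfn2 and of Bnip3 to Bnip3l in each heart (linear axes from 0), with a bar for each group's geometric mean. The Bnip3 to Bnip3l ratio stands at 5.07 after LPS and 3.43 after PBS in PPARα-deficient hearts, and at 6.67 after LPS and 4.09 after PBS in PPARa-Flox hearts.

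Per kilobase of exon, the members kept nearly the same order of levels in all groups. Pink1 stood first in each group, at a mean level of 232 to 253 CPM per kb, and Mff last, at 4.03 to 5.46 CPM per kb. In PBS hearts Mfn2 came second, at 157 CPM per kb in both genotypes, well above Bnip3 at 65.2 CPM per kb in PPARα-deficient hearts and 76.3 CPM per kb in PPARa-Flox hearts. In PPARα-deficient LPS hearts Mfn2 averaged 93.5 and Bnip3 90.5 CPM per kb, and in PPARa-Flox LPS hearts Mfn2 averaged 101 and Bnip3 132 CPM per kb, with overlapping ranges in both groups. Opa1 and Dnm1l overlapped in every group, between 13.2 and 21.5 CPM per kb. By CPM, Mfn2 and Pink1 lay at the 99.3rd percentile of tested genes and Fundc1 at the 66.2nd.

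A wider set of fusion, fission and mitophagy genes was read beside the members. Of 67 tested genes that are not members, 10 rose and 20 fell with LPS in PPARα-deficient hearts, with a median log2 fold change of -0.10. In PPARa-Flox hearts 15 rose and 22 fell, with a median of -0.07. Over all genes tested, 37.7% were called in PPARα-deficient hearts and 39.3% in PPARa-Flox hearts.

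Of 16 further fission genes tested, 3 rose and 5 fell with LPS in PPARα-deficient hearts, and 2 rose and 5 fell in PPARa-Flox hearts. The largest falls among them were those of Akap1 and Mtfp1. Akap1, a scaffold that holds protein kinase A on the outer membrane, where the kinase is known to restrain DRP1, averaged 61.03 ± 4.33 CPM after LPS and 180 ± 7.50 CPM after PBS in PPARα-deficient hearts (log2 fold change -1.56). In PPARa-Flox hearts Akap1 averaged 60.9 ± 4.50 CPM after LPS and 194 ± 6.39 CPM after PBS (-1.67). Mtfp1, an inner membrane protein of fission, averaged 37.7 ± 7.57 CPM after LPS and 136 ± 12.7 CPM after PBS in PPARα-deficient hearts (-1.85). In PPARa-Flox hearts it averaged 33.9 ± 5.86 CPM after LPS and 148 ± 13.2 CPM after PBS (-2.12). These falls passed the test (largest adjusted p = 4.04e-08), and each was larger than that of any of the 10 members. Spire1, an actin nucleator at fission sites, rose by 0.48 in PPARα-deficient and 0.78 in PPARa-Flox hearts on the log2 scale, and the phosphatase gene Pgam5 rose by 0.36 in PPARα-deficient and 0.27 in PPARa-Flox hearts.

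Of 20 further genes of fusion and inner membrane shape, 0 rose, 6 fell and 14 were not called with LPS in PPARα-deficient hearts, and 2 rose (Yme1l1 by 0.29 and Msto1 by 0.45 on the log2 scale), 8 fell and 10 were not called in PPARa-Flox hearts. Slc25a46, an outer membrane protein that interacts with the fusion machinery, fell with LPS by 0.69 in PPARα-deficient and 0.68 in PPARa-Flox hearts on the log2 scale. Oma1, the protease that cleaves OPA1 under stress, fell by 0.56 in PPARα-deficient and 0.47 in PPARa-Flox hearts. Immt, the core of the cristae junction complex, fell by 0.24 in PPARα-deficient and 0.37 in PPARa-Flox hearts. Dnajc11, a protein associated with that complex, fell by 0.47 in PPARα-deficient and 0.57 in PPARa-Flox hearts.

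Of 14 further genes of the PINK1-Parkin pathway, 3 rose and 3 fell with LPS in PPARα-deficient hearts, and 7 rose and 3 fell in PPARa-Flox hearts. Optn, an autophagy receptor recruited to ubiquitin-coated mitochondria, averaged 55.0 ± 7.48 CPM after LPS and 110.1 ± 6.39 CPM after PBS in PPARα-deficient hearts, and 56.2 ± 3.23 CPM after LPS and 103 ± 7.36 CPM after PBS in PPARa-Flox hearts. Tbk1, the kinase that activates OPTN and also drives interferon signalling, averaged 39.3 ± 7.92 CPM after LPS and 17.2 ± 1.49 CPM after PBS in PPARα-deficient hearts, and 35.4 ± 5.92 CPM after LPS and 15.1 ± 2.33 CPM after PBS in PPARa-Flox hearts. Optn thus fell (log2 fold change -1.0 in PPARα-deficient and -0.87 in PPARa-Flox hearts) where Tbk1 rose (1.19 in PPARα-deficient and 1.23 in PPARa-Flox hearts), each with an adjusted p under the threshold. Rhot2, which anchors mitochondria to their motor proteins and is degraded in mitophagy, fell by 0.57 in PPARα-deficient and 0.71 in PPARa-Flox hearts.

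Of 13 regulators of mitophagy, 3 rose and 5 fell with LPS in PPARα-deficient hearts, and 4 rose and 5 fell in PPARa-Flox hearts. Pptc7, a phosphatase known to hold BNIP3 and NIX protein levels down, fell strongly. It averaged 72.5 ± 10.7 CPM after LPS and 228 ± 21.8 CPM after PBS in PPARα-deficient hearts, with a log2 fold change of -1.65 (adjusted p = 1.52e-07). In PPARa-Flox hearts it averaged 64.5 ± 14.7 CPM after LPS and 208 ± 12.2 CPM after PBS, with a log2 fold change of -1.69 (adjusted p = 1.07e-07). Prkaa2, a catalytic subunit of AMP-activated protein kinase, fell by 1.43 in PPARα-deficient and 1.04 in PPARa-Flox hearts on the log2 scale. Hif1a, which encodes the oxygen-regulated subunit of HIF-1, rose by 0.82 in PPARα-deficient and 1.38 in PPARa-Flox hearts, and Src, a kinase known to phosphorylate FUNDC1, rose by 1.02 in PPARα-deficient and 0.58 in PPARa-Flox hearts.

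Since Bnip3 is a hypoxia-inducible gene, 17 others of that kind were read beside it. With LPS, 5 rose and 7 fell in PPARα-deficient hearts, and 4 rose and 8 fell in PPARa-Flox hearts. Slc2a1, a glucose transporter, rose by 1.18 in PPARα-deficient and 1.04 in PPARa-Flox hearts on the log2 scale. Vegfa, the endothelial growth factor gene, had log2 fold changes of -1.93 in PPARα-deficient and -2.19 in PPARa-Flox hearts, and Egln3, an oxygen-sensing hydroxylase of HIF, had -1.38 in PPARα-deficient and -1.83 in PPARa-Flox hearts, all passing the test. Over all genes tested, 19.4% rose and 18.3% fell in PPARα-deficient hearts, and 20.2% rose and 19.1% fell in PPARa-Flox hearts. The part of HIF-1 in the rise of Bnip3 was not tested.

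Loss of PPARα called 1 of the 67 further genes of the wider lists in LPS hearts, where 1.23% of all genes tested were called, and 0 in PBS hearts by edgeR, where 0.433% were. An unadjusted p under 0.05 was found for 6 of the 67 in LPS hearts and 5 in PBS hearts. The called gene was Bcl2l13, a mitophagy receptor of the BCL2 family like Bnip3. It was 1 of 5 further mitophagy receptors tested, and the others were not called. Of these 5, 2 had a positive log2 fold change for loss of PPARα in LPS hearts, and their median was -6e-04. Bcl2l13 averaged 69.3 ± 6.58 CPM in PPARα-deficient LPS hearts and 93.1 ± 3.71 CPM in PPARa-Flox LPS hearts (SD, n = 4 each), ranging from 63.2 to 76.3 CPM in the PPARα-deficient LPS hearts and from 87.9 to 96.6 CPM in the PPARa-Flox LPS hearts. The log2 fold change was -0.43 ± 0.07 (SE, adjusted p = 0.00444), and in PBS hearts it was -0.22 (adjusted p = 0.479). Unlike Bnip3, Bcl2l13 fell with LPS, by 0.50 in PPARα-deficient and 0.29 in PPARa-Flox hearts on the log2 scale. Ulk1, the kinase that starts autophagosome formation, had a log2 fold change of -0.51 for loss of PPARα in LPS hearts that did not pass (adjusted p = 0.0544). Both Bcl2l13 and Ulk1 depended on the fit: with DESeq2 Ulk1 passed (adjusted p = 0.00812), and in the edgeR fit of the 8 LPS libraries alone Bcl2l13 did not (adjusted p = 0.0706).

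**Figure D4:**
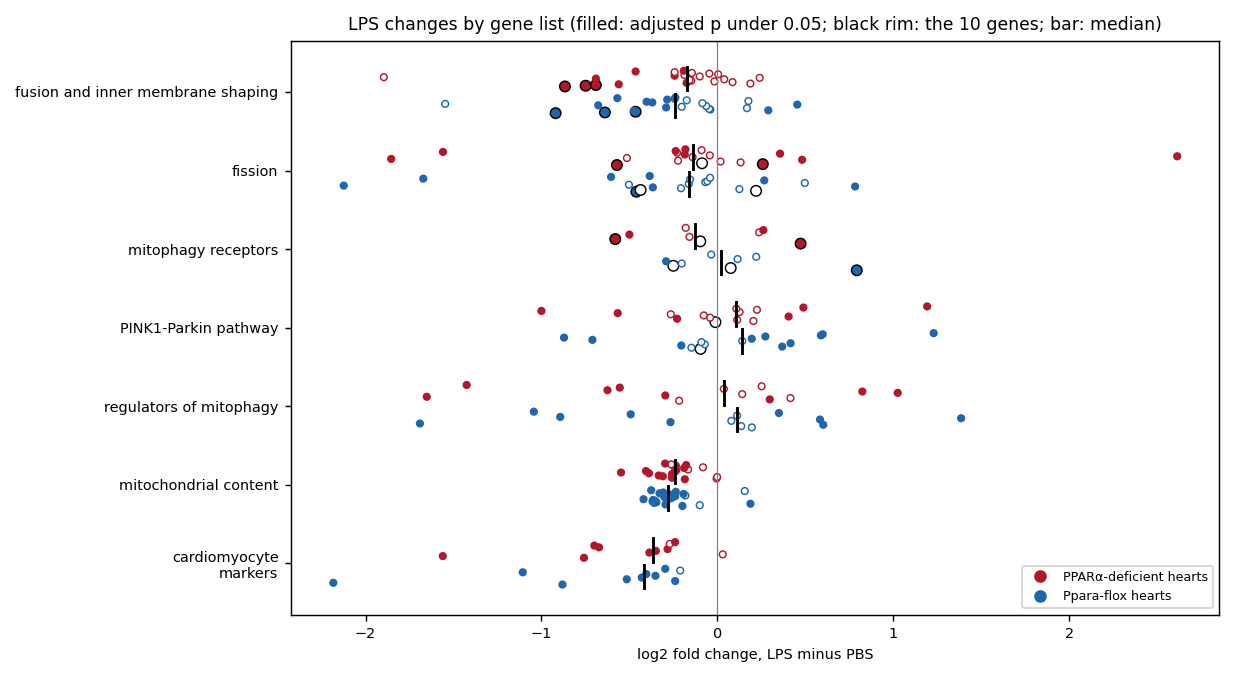
Log2 fold change with LPS of each tested gene of the wider lists, in PPARα-deficient and PPARa-Flox hearts, with a bar at each list's median, filled points for an adjusted p under 0.05 and a black rim for the 10 genes. The lists hold genes on both sides of 0, with Mtfp1 at -1.85 in PPARα-deficient and -2.12 in PPARa-Flox hearts and Tbk1 at 1.19 in PPARα-deficient and 1.23 in PPARa-Flox hearts, while the mitochondrial content genes lie mostly below 0.

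The coactivator Ppargc1a, a known driver of Mfn2 transcription, averaged 61.7 ± 37.5 CPM after LPS and 426 ± 85.4 CPM after PBS in PPARα-deficient hearts. In PPARa-Flox hearts Ppargc1a averaged 28.4 ± 8.79 CPM after LPS and 399 ± 90.8 CPM after PBS. The log2 fold change with LPS was -2.79 in PPARα-deficient and -3.81 in PPARa-Flox hearts. The part of Ppargc1a in the Mfn2 levels was not tested.

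The genes whose log2 CPM ran closest to each called member over the 16 libraries were found by the root mean square difference after centring each gene, among 10014 genes. Closest to Mfn1 were Cox10, an assembly factor of cytochrome oxidase (0.0713), Nudt3 (0.0728) and Hdhd2 (0.0785). Mfn2 had Itgb1bp2 (0.0899), Tmem182 (0.0958) and the muscle phosphofructokinase gene Pfkm (0.0962), and Opa1 had Lrp6 (0.0912), Tnks2 (0.0936) and Cdc37l1 (0.0955). Dnm1l had looser partners, with Nlk at 0.149, Rab21 at 0.154 and Pik3c2b at 0.166. For Fis1 they were Sec13 (0.0578), Dctn3 (0.0736) and Ptpra (0.079), and for Fundc1 they were Fbxo3 (0.0835), Cog6 (0.0997) and Dnaja2 (0.101). The closest to Bnip3 were Rab9 (0.137), Clpx (0.146) and Adipor2 (0.165). These values share libraries and the LPS contrast, and are given as a description.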

How the data were processed

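The deposited tables gave estimated counts per gene symbol for each of 16 heart RNA libraries. Per the submitters' processing notes, the tools were StringTie 1.3.3b, HISAT, fastp 0.23.2 and DESeq2 1.30.1, and the build was GRCm38, and the counting step and its strand setting are not given in the sources used here. Of 55421 table lines, 27 whose symbols had turned into dates were left out (0.0644% to 0.0861% of counts), and repeated symbols were summed (116 extra rows), leaving 55278 symbols.

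The estimated counts were whole numbers and were tested as deposited with edgeR 4.0.16 in R 4.3.3, using filterByExpr, TMM factors, 4 group means over the 16 libraries and a quasi-likelihood F test per contrast. P-values were adjusted by Benjamini-Hochberg over 18713 genes. The standard error is the size of the log2 fold change over the root of F. CPM values use TMM-scaled library sizes. The script was tested on simulated data. Paralogue ratios were compared with exact two-sided permutation tests over hearts. The labels do not say whether replicates were prepared on separate days, and p-values measure the spread between these animals.

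The members and gene lists were chosen with earlier results of these data known. Named genes outside the members were up to 3 per list and comparison with the smallest p, called genes where 5 or fewer were called, and the 3 genes most like each called member (average log2 CPM of at least 2). Tomm20, Tnnt2, Yme1l1 and Msto1 were named after their values were seen. Alternatives were RLE and upper-quartile factors, DESeq2 1.42.0, other filters, an adjusted p under 0.01, a replicate block, leaving out each library or a pair of them, division by 4, the 8 libraries compared alone and, added after the file headers were seen, the PBS number series as a term. Coordinates are from GENCODE on GRCm38 and promoters from RefSeq. Exon length is the union of all annotated exons, so levels per kilobase are approximate. No other series' columns were in the files.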

Additional observations from a re-analysis of the deposited data

Results flagged for a closer look

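In 48 groups of 4 hearts (the 10 genes and 2 ratios in each of the 4 groups), 5 values lay far enough from the other 3 to pass Dixon's 95% outlier criterion. Chance alone flags about 1 in 20 groups.

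Opa1 was 129.6 CPM in PPARa-Flox LPS replicate 4, against 110.0 to 113 CPM in the other 3 hearts of that group. Dnm1l was 54.1 CPM in PPARα-deficient LPS replicate 1, against 72.3 to 75.2 CPM in the others.

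Bnip3 was 252 CPM in PPARα-deficient LPS replicate 1, against 185 to 195 CPM in the others. That heart is the one that overlapped the PPARa-Flox LPS hearts in the genotype comparison. Bnip3 was also 163 CPM in PPARα-deficient PBS replicate 2, against 141 to 145 CPM in the others.

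The ratio of Mfn1 to Mfn2 was 0.411 in PPARα-deficient LPS replicate 3, against 0.454 to 0.456 in the others.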

How the results depend on the processing

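Of 13 calls of members, 10 were kept in each of the alternatives that gave them a value, 27 in all, and no called member changed sign. Not kept were Fis1 with LPS in PPARα-deficient hearts, Dnm1l with LPS in PPARa-Flox hearts and Bnip3 for loss of PPARα in LPS hearts, the last of which missed the threshold in 16 alternatives. The count of members that rose with LPS in PPARα-deficient hearts, 2 as reported, was 1 with upper-quartile factors, with no filter, at an adjusted p under 0.01 and with the replicate number as a block, and ran from 1 to 2 as single libraries were left out. With LPS in PPARa-Flox hearts, the count of members that fell, 4 as reported, ran from 3 to 6 as single libraries were left out. The count of members that rose with LPS in PPARa-Flox hearts, 1 as reported, was 2 without replicate 4 of the PPARa-Flox LPS hearts and replicate 3 of the PPARα-deficient LPS hearts, and ran from 1 to 2 as single libraries were left out. The count of members lower with loss of PPARα in LPS hearts, 1 as reported, was 0 with upper-quartile factors, with no filter, at an adjusted p under 0.01, with the replicate block, without that pair of libraries and in the fit of the 8 libraries compared alone, and ran from 0 to 1 as single libraries were left out. The causes were not tested.

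Among the ratios, leaving out single libraries brought some adjusted p-values of the permutation tests to 0.0457. The tests of both ratios were adjusted together, so an adjusted p can fall because another test reached the smallest possible exact p. Over the single libraries left out, the log2 difference of Bnip3 to Bnip3l ran from 0.46 to 0.65 for LPS in PPARα-deficient hearts. For loss of PPARα in LPS hearts it ran from -0.50 to -0.31, and that of Mfn1 to Mfn2 from 0.15 to 0.22.

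Hearts with the same replicate number did not deviate together (correlations of -0.07 to 0.07 over 16 pairs), so the numbers were not taken to pair animals. With the block, the adjusted p of Bnip3 for loss of PPARα in LPS hearts was 0.0528 and that of Fis1 with LPS in PPARα-deficient hearts was 0.0502. In PPARa-Flox hearts, Mff, Fundc1 and Fis1 passed in a few alternatives: with upper-quartile factors the adjusted p was 0.0404 for Mff and 0.0276 for Fundc1, and without LPS replicate 4 it was 0.0213 for Fis1. Of the wider lists, 13 genes fell with LPS in PPARα-deficient hearts and 7 rose in PPARa-Flox hearts at an adjusted p under 0.01, against 20 and 15 as reported. The lowest estimated count of any member was 895, and whether the depth of the libraries limited the members was not tested. With 4 hearts a group, small differences such as those of Pink1 cannot be told from 0.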
